A study of Mus musculus with 15 samples.

Results

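The creatine and adenylate energy-buffering genes described here are Slc6a8, the plasma membrane creatine transporter, Ckb, the brain-type cytosolic creatine kinase, Ak1, the cytosolic adenylate kinase, and Chchd10, a small CHCH-domain protein of the mitochondrial intermembrane space. They are 4 of the 8251 genes on the array, and every probe set annotated to one of these symbols alone was used, which gave 5 of 12422 probe sets (2 for Slc6a8 and 1 for each other gene). The genes were chosen on their RANKL effects in these same arrays, so their values below are a description: no p-value is given for them, and how many passed the threshold is stated only beside the share of all probe sets, with nothing read from it. RNA came from RAW 264.7 cells, a mouse macrophage-like cell line, cultured with or without RANKL, the cytokine that turns macrophage precursors into bone-resorbing osteoclasts. Control cells, which received serum-free medium without RANKL, are held by 8 arrays, with 1 for each of days 1 and 5 and 2 for each of days 2, 3 and 4. RANKL-treated cells, given the cytokine in serum-free medium on days 0 and 3, are held by 7 arrays, with 1 for day 1 and 2 for each of days 2, 4 and 5; RANKL cells of day 3 were not analysed here. The labels call all cells mononuclear except the RANKL cells of days 4 and 5, which they call multi-nuclear. All groups share 1 cell line, and nothing in the labels says that replicates were separate cultures, so standard errors and p-values measure only the spread between these samples, which may be technical.

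Cells that use ATP in bursts or far from their mitochondria hold a reserve of high-energy phosphate. Creatine enters through SLC6A8 and is phosphorylated by creatine kinases, which return the phosphate to ADP when ATP is spent; adenylate kinases make ATP and AMP from a pair of ADP molecules, and the AMP formed is read by the AMP-activated kinase. Osteoclasts use ATP for the proton pump that acidifies the resorption site and for their actin ring, and are rich in mitochondria; CHCHD10 lies in the mitochondrial intermembrane space and has been associated with the MICOS complex, which shapes the cristae.

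The signals were on a linear MAS5 scale each array being scaled to 500 as its 2% trimmed mean, and differences are given as log2(signal + 32), a scale that understates the change of dim probe sets. Array medians ran from 103 to 149, and replicate arrays correlated at r = 0.975 to 0.984. The osteoclast markers checked the labels: the summed signal of the 5 represented of 8 ran from 323 to 1781 on the control arrays and from 1049.5 to 24707 on the RANKL arrays, with Calcr and Itgb3 under 100 on every array. The 8 macrophage markers summed to between 46933 and 61840 on control arrays and between 29678 and 58222 on RANKL arrays, with Mrc1 under 100 throughout. The number of markers past the threshold for RANKL minus control over the 4 days was 3 for osteoclasts (all higher in RANKL cells), 2 for macrophages and 0 for stromal, T, B and erythroid cells. Creatine kinases and Ak1 are abundant in muscle and nerve; the 7 muscle markers summed to 489 to 645 on control arrays and 427 to 753 on RANKL arrays, and 5 of 6 nerve and glia markers to 836 to 1650 against 745 to 1463. None of those 12 genes passed the same test. The ratio of the 3′ to the 5′ beta-actin signal, a measure of RNA quality, ran from 1.01 to 1.25 on control arrays and from 1.02 to 1.39 on RANKL arrays. In such bulk RNA, more cells of a type and more RNA in each cell cannot be told apart. The part that the osteoclast markers, higher on the same arrays, have in the results below was not tested.

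The promoter windows of 3 of the 4 genes are shown because the genes were chosen for differing in the same direction under 1 cytokine. Each is 300 bases of RefSeq's GRCm38.p6 on the strand of the gene, from 250 bases before the annotated start to 50 after it, 5′ to 3′, with matches to the searched motifs in capitals. Ckb has 1 window, chr12:111672289-111672588 on the minus strand. Chchd10 has 1, chr10:75932880-75933179 on the plus strand. Ak1 has 4 on the plus strand of chromosome 2, of which chr2:32625187-32625486 and chr2:32628140-32628439 are shown; these were picked for their matches after the windows had been read.
Ckb: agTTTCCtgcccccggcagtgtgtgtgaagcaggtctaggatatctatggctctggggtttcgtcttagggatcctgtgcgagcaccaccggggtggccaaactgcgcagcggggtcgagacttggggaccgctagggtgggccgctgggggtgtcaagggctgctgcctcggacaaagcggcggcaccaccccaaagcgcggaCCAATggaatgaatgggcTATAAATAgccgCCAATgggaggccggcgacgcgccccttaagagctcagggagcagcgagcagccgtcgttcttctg
Chchd10: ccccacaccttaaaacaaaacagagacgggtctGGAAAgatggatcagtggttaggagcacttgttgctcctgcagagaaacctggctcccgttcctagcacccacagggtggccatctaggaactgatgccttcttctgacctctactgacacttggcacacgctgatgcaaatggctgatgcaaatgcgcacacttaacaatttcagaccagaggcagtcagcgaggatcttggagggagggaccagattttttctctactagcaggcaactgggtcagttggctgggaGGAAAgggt
Ak1, chr2:32625187-32625486: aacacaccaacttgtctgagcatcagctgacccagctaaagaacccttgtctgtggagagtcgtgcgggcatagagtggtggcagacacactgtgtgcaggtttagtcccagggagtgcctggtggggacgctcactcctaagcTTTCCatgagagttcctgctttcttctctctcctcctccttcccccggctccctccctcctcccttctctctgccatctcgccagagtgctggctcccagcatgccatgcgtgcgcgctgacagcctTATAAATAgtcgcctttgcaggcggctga
Ak1, chr2:32628140-32628439: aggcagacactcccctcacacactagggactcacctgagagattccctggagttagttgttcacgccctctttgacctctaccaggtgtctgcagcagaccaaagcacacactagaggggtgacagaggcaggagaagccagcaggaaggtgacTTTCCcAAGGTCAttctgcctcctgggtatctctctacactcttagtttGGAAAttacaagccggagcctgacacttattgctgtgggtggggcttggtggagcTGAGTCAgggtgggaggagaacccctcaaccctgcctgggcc
The motifs searched, on both strands, were AP-1 (TGANTCA), the NFAT core (GGAAA), the E-box CACGTG, the M-box TCATGTG, PU.1 (GAGGAAGT), ERR (AAGGTCA), NRF1 (GCGCNTGC), NF-kB (GGGNNTTTC), CCAAT, the GC box GGGCGG and, added after the sequences were read, the TATA box TATAAATA. Ckb held a TATA box that begins 28 bases before the start, set between CCAAT boxes that begin 46 and 16 bases before it. Of all 32851 windows, 1.70% held that TATA box and 37.4% a CCAAT box. The first Ak1 window shown held the same TATA letters, beginning 21 bases after its annotated start. The other one held an AP-1 match 8 bases after its start and an ERR match 90 bases before it, which 7.81% and 4.72% of all windows held. The NFAT core was in all 6 windows of these genes and in 61.3% of all windows. A match is a description of these letters only.

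Slc6a8 was measured by a pair of probe sets that behaved differently. The brighter one, 95625_at, read 25.5 on the control array of day 1, 23.7 and 49.9 on day 2, 236 and 129 on day 3, 264 and 203 on day 4 and 73.6 on day 5. On the RANKL arrays it read 39.5 on day 1, 172 and 233 on day 2, 415 and 564 on day 4 and 391 and 335 on day 5. The creatine transporter signal was low in both treatments on day 1 and had climbed in RANKL cells by day 2, to a level that control arrays reached only on days 3 and 4. All 4 RANKL arrays of days 4 and 5 lay above all 8 control arrays, while those of day 2 lay below the highest control arrays of days 3 and 4. RANKL minus control was 0.31 ± 0.47 (SE) on day 1, 1.78 ± 0.33 on day 2, 0.97 ± 0.33 on day 4 and 1.90 ± 0.41 on day 5. The single control array of day 5, at 73.6, fixes the last of these, since it lay below every control array of days 3 and 4. Over the 4 days the difference was 1.24 ± 0.20.

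The other Slc6a8 probe set, 97748_at, was among the dimmest on the array: its mean signal of 16.4 exceeded that of 15.2% of probe sets, against 57.3% for 95625_at. It read 24.5 on the control array of day 1, 20.5 and 10.5 on day 2, 22.9 and 7.56 on day 3, 8.27 and 26.9 on day 4 and 7.31 on day 5. On the RANKL arrays it read 8.25 on day 1, 12.9 and 14.0 on day 2, 24.1 and 18.7 on day 4 and 22.6 and 16.4 on day 5. No RANKL array lay above the highest control array, and each step between neighbouring groups in the order of levels was smaller than the residual SD of 0.24. The opposite sign was seen, but barely: the difference over the 4 days was -0.01 ± 0.13. It was made up of -0.49 ± 0.32 on day 1, -0.06 ± 0.22 on day 2, 0.13 ± 0.22 on day 4 and 0.39 ± 0.27 on day 5, and without the day 1 pair it was 0.15. Over the 15 arrays the Slc6a8 probe sets correlated at r = 0.26, a description over points that share arrays. With their log2 values averaged, the 4-day difference of Slc6a8 was 0.62.

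**Figure D1:**
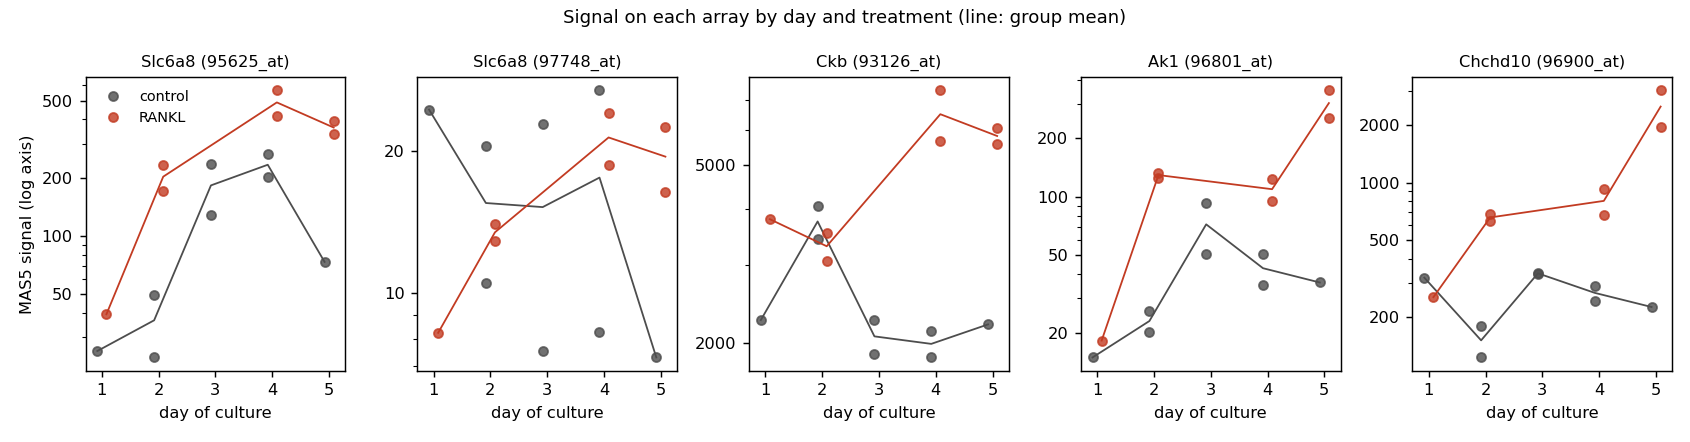
MAS5 signal (log axis, a separate range for each probe set) against day of culture, with a point for each of the 8 control arrays (grey) and 7 RANKL arrays (red) and lines through the group means. Ak1 and Chchd10 separate by treatment from day 2 on and Ckb at days 4 and 5, while the dim Slc6a8 probe set 97748_at stays between 7.31 and 26.9 with the treatments mixed.

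Ckb, measured by the probe set 93126_at, was bright on every array, with a mean signal of 3670 that exceeded that of 96.1% of probe sets. Control arrays read 2255 on day 1, 3424 and 4062 on day 2, 2256 and 1893 on day 3, 2130 and 1861 on day 4 and 2206 on day 5. RANKL arrays read 3786 on day 1, 3060 and 3531 on day 2, 5651 and 7333 on day 4 and 5561 and 6048 on day 5. The creatine kinase signal thus did not separate the treatments on day 2, where no RANKL array lay above the higher control array, and separated them fully at days 4 and 5, the days of multi-nuclear cells. RANKL minus control was 0.74 ± 0.26 on day 1, -0.18 ± 0.19 on day 2, 1.68 ± 0.19 on day 4 and 1.38 ± 0.23 on day 5, and 0.90 ± 0.11 over the 4 days. The day 2 control arrays were the highest of the controls. In the order of levels, each step among the control groups of days 1, 3, 4 and 5 was within the residual SD of 0.17. So was the step between the RANKL groups of days 4 and 5. The step between RANKL day 1 and RANKL day 5 was 0.61.

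Ak1, measured by 96801_at, was dim in control cells. The control arrays read 14.9 on day 1, 20.0 and 25.8 on day 2, 51.0 and 93.1 on day 3, 35.1 and 50.6 on day 4 and 36.2 on day 5. RANKL arrays read 18.2 on day 1, 125 and 133 on day 2, 124 and 95.0 on day 4 and 254 and 352 on day 5. The adenylate kinase signal was alike in both treatments on day 1, and on days 2, 4 and 5 all 6 RANKL arrays lay above all 8 control arrays. The margin was narrow: the lowest of these RANKL arrays read 95.0 (day 4) and the highest control array 93.1 (day 3). RANKL minus control was 0.10 ± 0.43 on day 1, 1.55 ± 0.30 on day 2, 0.92 ± 0.30 on day 4 and 2.28 ± 0.37 on day 5. The 4-day difference was 1.21 ± 0.18, and because the control signal is near the pseudocount of 32 it was 1.77 with a pseudocount of 1 and 0.76 with 100. RANKL day 2 and day 4 did not differ beyond the residual SD of 0.25, and RANKL day 5 stood 1.04 above RANKL day 2.

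Chchd10, measured by 96900_at, gave the largest day 5 difference of the 5 probe sets. Control arrays read 319.8 on day 1, 123 and 179 on day 2, 334 and 339.9 on day 3, 290.5 and 242 on day 4 and 225 on day 5. RANKL arrays read 253 on day 1, 631 and 686 on day 2, 927 and 679.5 on day 4 and 1960.5 and 3023 on day 5. On day 1 the RANKL array was the lower one, and from day 2 on all 6 RANKL arrays lay above all 8 control arrays. RANKL minus control was -0.30 ± 0.35 on day 1, 1.93 ± 0.25 on day 2, 1.47 ± 0.25 on day 4 and 3.26 ± 0.31 on day 5. The last is a 9.61-fold difference on this scale. The 4-day difference was 1.59 ± 0.15; it was 1.04 when the control array of day 5, and with it the day 5 comparison, was left out, and 2.22 without either day 1 array. The RANKL groups of days 2 and 4 lay within the residual SD of 0.26 of each other, while RANKL day 5 stood 1.58 above RANKL day 4.

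**Figure D2:**
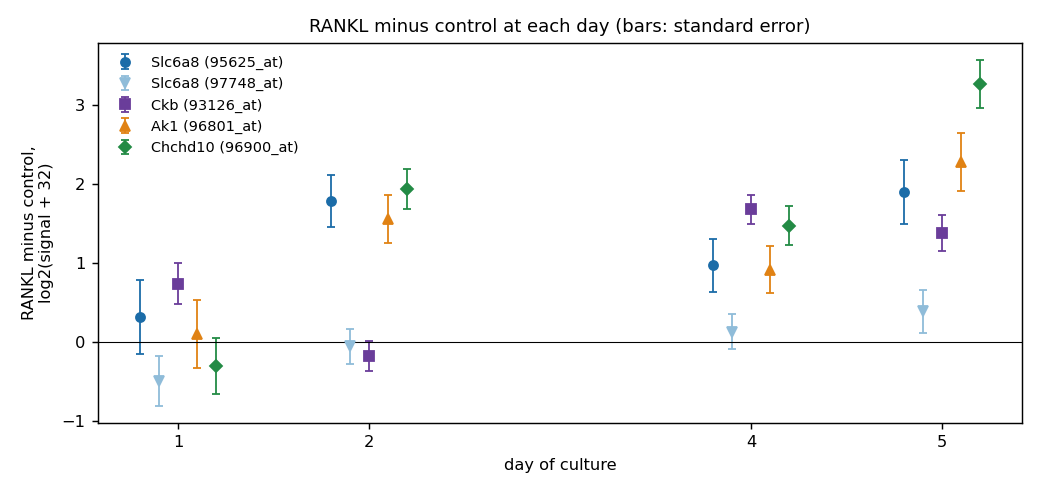
RANKL minus control in log2(signal + 32) at days 1, 2, 4 and 5 for the 5 probe sets, with standard errors from the fit over all 15 arrays. Slc6a8 (95625_at), Ak1 and Chchd10 are high on day 2, when Ckb is at -0.18, and Chchd10 reaches 3.26 on day 5.

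The same comparisons over the whole array give the setting for these values. Over the 4 days 4 of the 5 probe sets passed the threshold of adjusted p = 0.05 (limma, Benjamini-Hochberg), where 1.09% of all probe sets passed. On day 1, where each treatment has 1 array, 0 passed, as did 0% of all. The number was 3 of 5 on day 2 (Slc6a8, Ak1 and Chchd10), beside 0.853% of all, 2 of 5 on day 4 (Ckb and Chchd10), beside 0.266%, and 3 of 5 on day 5 (Ckb, Ak1 and Chchd10), beside 0.918%. All 6 RANKL arrays of days 2, 4 and 5 lay above all 5 control arrays of those days for 0.789% of probe sets, Ak1 and Chchd10 among them. The shares of all probe sets for the other separations by array given above were not counted. Since the genes were picked on these contrasts, nothing is read from their share or from those separations. The day 5 median of all probe sets was 0.11, and 0.02 after quantile normalization, which is small beside the day 5 values above.

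The time courses were compared within each treatment as the mean of days 4 and 5 minus the mean of days 1 and 2. In RANKL cells the late minus early difference was 1.81 ± 0.26 for Slc6a8 (95625_at), 0.79 ± 0.15 for Ckb, 1.26 ± 0.24 for Ak1 and 1.69 ± 0.20 for Chchd10. In control cells it was 1.42 ± 0.29, -0.46 ± 0.16, 0.49 ± 0.26 and 0.13 ± 0.22 in the same order. The creatine transporter was thus higher late in both treatments, the difference between them being untested, while Ckb had opposite signs: each late RANKL array lay above each early RANKL array, and each control array of days 4 and 5 lay below each early control array, though the day 5 array lay below the day 1 array by less than the residual SD. For Slc6a8 (95625_at) the means average unlike days. RANKL cells were at 6.16 on day 1 and 7.86 on day 2, and control cells at 8.04 on day 4 and 6.72 on day 5. Changes of like size thus do not mean like time courses. The dim probe set 97748_at gave 0.29 ± 0.18 in RANKL cells and -0.24 ± 0.19 in control cells. With culture time 4 of 5 probe sets passed in RANKL cells, beside 14.8% of all, and 1 of 5 (Slc6a8, 95625_at) in control cells, beside 10.9%. These comparisons use the same arrays as the RANKL effects, which the choice of genes used. The share of all probe sets that separate as Ckb does was not counted.

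**Figure D3:**
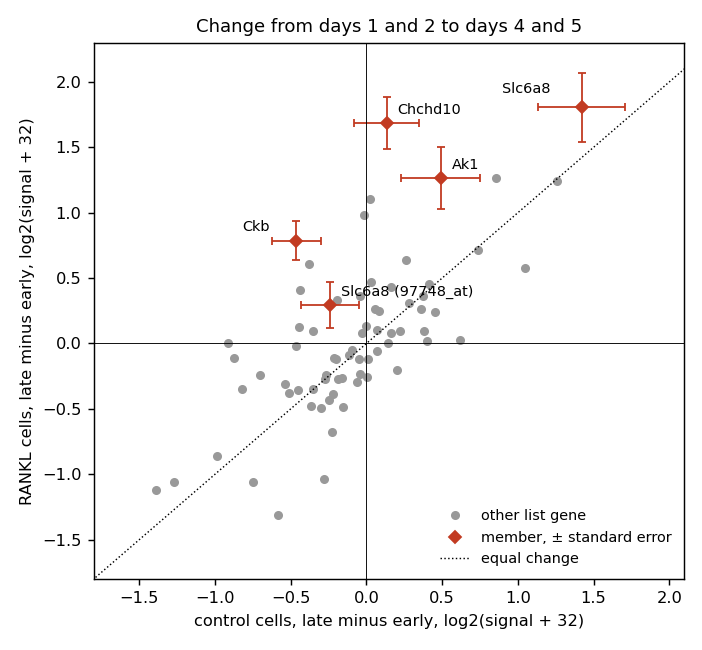
Late (days 4 and 5) minus early (days 1 and 2) log2(signal + 32) in control cells (horizontal) and RANKL cells (vertical). The 5 probe sets (red, with standard errors) are drawn with 67 other list genes (grey), of energy metabolism and the SLC6 transporter family. The bright Slc6a8 probe set lies near the dotted line of equal change, which compares averages over days and not the course by day. Ckb lies at -0.46 in control and 0.79 in RANKL cells.

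Across the 15 arrays the profiles of Ak1 and Chchd10 were the most alike among these genes, with r = 0.93. Slc6a8 (95625_at) correlated at 0.76 with Ak1 and 0.72 with Chchd10, and Ckb at 0.64 with Chchd10, 0.54 with Ak1 and 0.44 with Slc6a8. Among about 5175 genes with a mean signal over 100, the profile nearest to that of Chchd10 was Ctsk, the collagen-degrading protease cathepsin K of osteoclasts (r = 0.92), followed by Pheta1 and Crtap (0.91 each). Nearest to Slc6a8 were Atp6v1d, a subunit of the vacuolar proton pump (0.92), Gpr137b-ps (0.92) and Csf2rb2 (0.91). For Ckb they were Actn1, an actin crosslinker (0.91), Abcb4 (0.88) and Ank, a transporter that exports pyrophosphate (0.86). For Ak1 they were Chchd10 itself (0.93), Mkrn1 (0.92) and the AP-1 subunit Fosl2 (0.90). These correlations describe points that share arrays, days and treatments. The described genes were chosen on their RANKL effects in the same arrays, so a search for like profiles favours other genes that are higher with RANKL. All the genes named as nearest had a positive mean RANKL difference, and Ctsk was also among the osteoclast markers that checked the labels. Nothing about a shared function is therefore read from these genes.

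Other genes of the same pathways and of the SLC6 transporter family came from 10 lists with 107 genes besides these 4, of which 67 are represented. The lists too were chosen with earlier results of these data known, so their p-values are not those of an independent test. Over the 4 days none of the 67 passed the threshold (limma), and 9 (13.4%) had an unadjusted p under 0.05, as did 11.1% of all probe sets; 38 had a positive and 29 a negative difference, with a median of 0.03 beside 0.01 over all probe sets. By the brightest probe set of each gene they lay between -0.47 and 0.52; a dimmer probe set of Slc6a4, the serotonin transporter of the SLC6 list, was at 0.87 (limma adjusted p = 0.088), and the one that represents this gene was at 0.17. The counts at days 1, 4 and 5 were 0 as well, with 2, 6 and 19 genes at an unadjusted p under 0.05. These are 2.99%, 8.96% and 28.4% of the list genes, beside 5.86%, 8.13% and 14.2% of all probe sets, which include dimmer ones than those that represent genes. Of the 67 genes 24 have several probe sets, and for 13 of these the probe sets had opposite signs over the 4 days.

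**Figure D4:**
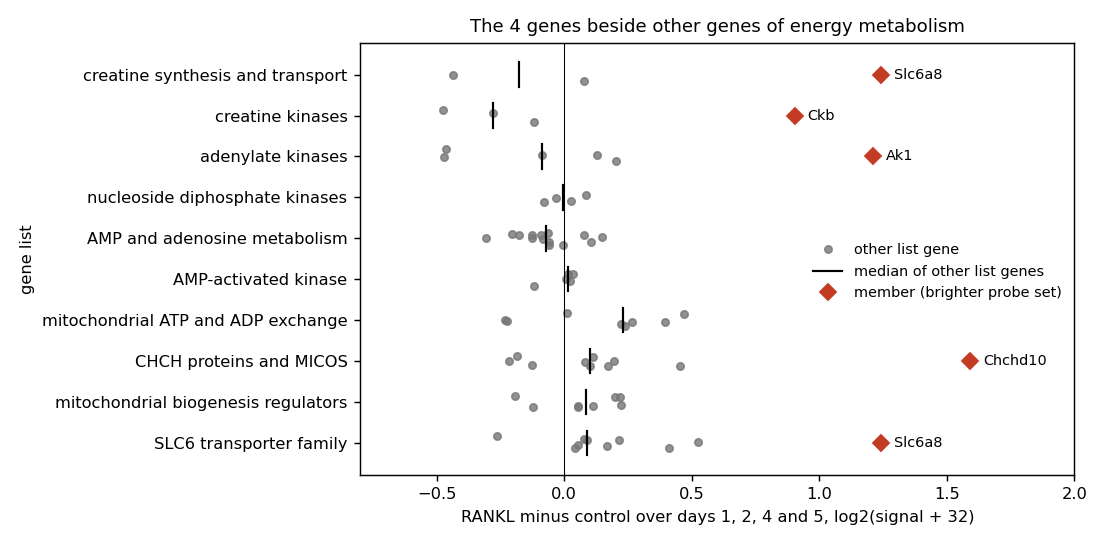
RANKL minus control over days 1, 2, 4 and 5 in log2(signal + 32) for each represented gene of the 10 lists (grey), the median of each list without the described genes (black line) and the described genes (red diamonds, brightest probe set; Slc6a8 belongs to 2 lists). By brightest probe set the 67 other genes lie between -0.47 and 0.52 and the diamonds between 0.90 and 1.59. The described genes were chosen on their RANKL effects in these arrays, so nothing is read from where the diamonds lie. Dimmer probe sets are not drawn, among them those of Slc6a8 (-0.01) and Slc6a4 (0.87).

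Creatine synthesis is a route from arginine and glycine through Gatm, then Gamt, and its members did not pass. Gatm read between 2208 and 3646 on the control arrays and between 1582 and 2681 on the RANKL arrays, which overlap. Its 4-day difference was -0.44 ± 0.10 (limma adjusted p = 0.078), opposite in sign to that of the creatine transporter. Gamt was at 0.08 ± 0.11 (limma adjusted p = 0.902). Of the other creatine kinases, which are the muscle and mitochondrial forms, 0 of 3 passed. Their brightest probe sets were negative, and each of the 3 also has a dimmer probe set with a positive difference. Ckm, the muscle form, was at -0.47 ± 0.17 (limma adjusted p = 0.286). That value rests on day 1, where Ckm read 158 on the control and 16.5 on the RANKL array, and its other probe set was at 0.21. Ckmt1 was at -0.12, with its other probe set at 0.18, and Ckmt2 at -0.28, with its others at 0.05 and 0.12.

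The list of adenylate kinases, which also holds the UMP-CMP kinases Cmpk1 and Cmpk2 and the guanylate kinase Guk1, had 5 of 11 represented, 2 positive and 3 negative. Ak4, the mitochondrial matrix form, was at -0.47 ± 0.16 (limma adjusted p = 0.237). It read between 119 and 352 on control arrays and between 68.5 and 295 on RANKL arrays. Nucleoside diphosphate kinases, which pass phosphate between nucleotides, had 0 of 4 past the threshold. Of the 14 represented genes of AMP and adenosine metabolism 11 were negative and 0 passed; Pnp, the purine nucleoside phosphorylase, was at -0.30 ± 0.10 (limma adjusted p = 0.213). The 5 represented subunits and partners of the AMP-activated kinase had a median of 0.01, and 0 passed.

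In the mitochondrial lists, and in the SLC6 family, more members were positive than negative and 0 passed. Of the 8 genes of mitochondrial ATP and ADP exchange 6 were positive, with a median of 0.23 and a range of -0.23 to 0.47. Slc25a4, an adenine nucleotide carrier, read between 2876 and 4097 on control arrays and between 3773 and 5304 on RANKL arrays, a difference of 0.39 ± 0.10 (limma adjusted p = 0.120). The CHCH proteins and MICOS list had 6 of 9 positive. The highest was the copper chaperone Cox17, at 0.45 ± 0.15 (limma adjusted p = 0.229). The lowest was Immt, at -0.22 ± 0.13 (limma adjusted p = 0.619). The regulators of mitochondrial biogenesis had 6 of 8 positive and ranged from -0.19 to 0.22. The highest was the nuclear receptor Esrra, at 0.22 ± 0.10 (limma adjusted p = 0.447). In the SLC6 family, to which the creatine transporter belongs, 8 of 9 were positive with a median of 0.09, and Slc6a12, the betaine and GABA transporter, was at 0.52 ± 0.11 (limma adjusted p = 0.058).

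Day 2 was the one day on which genes of these lists passed, 3 of 67 (4.48%), beside 0.853% of all probe sets, which include dimmer ones. Slc6a12 read 1418 and 1493 on the control arrays and 3176 and 3323 on the RANKL arrays, and rose by 1.14 ± 0.20 (limma adjusted p = 0.0257). Slc25a5, another adenine nucleotide carrier, read 1867 and 1850 against 3364 and 3369, and rose by 0.85 ± 0.15 (limma adjusted p = 0.0273). Its probe set is of a type that can detect related sequences, and the other Slc25a5 probe sets, at 0.82 ± 0.65 and 0.39 ± 0.25, did not pass. Adssl1, an adenylosuccinate synthase of AMP synthesis, read 1038 and 1250 against 474 and 488, and fell by 1.19 ± 0.24 (limma adjusted p = 0.0471). On day 4 Slc25a5 was back at -0.06 ± 0.15, with 1559 and 1777 on the RANKL and 1807 and 1671 on the control arrays. None of the 3 passed when any one of the 4 day 2 arrays was left out, and 1 passed without either control array of day 4.

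With culture time more of the 67 genes passed: 13 in RANKL cells, of which 6 rose and 7 fell, and 11 in control cells, of which 4 rose and 7 fell. These are 19.4% and 16.4% of the list genes, near the 14.8% and 10.9% of all probe sets. A set of 6 genes passed in both, all with the same sign, which is 46.2% of the first group and 54.5% of the second. Over all probe sets 815 passed in both, 99.6% of them with the same sign, which is 44.3% of those called in RANKL cells and 60.5% of those called in control cells. Among the 6 genes, Gart, an enzyme of purine synthesis, fell by 1.12 in RANKL and by 1.39 in control cells, and the nucleoside diphosphate kinases Nme1 and Nme6 fell as well. Ampd3, which deaminates AMP, rose by 1.27 and 0.85, and Cab39, a partner of the kinase LKB1 upstream of the AMP-activated kinase, by 1.24 and 1.26. Adssl1 was the other, at 0.71 and 0.74. The counts rest on single arrays: the RANKL count was 6 without the second RANKL array of day 2 and 7 without the second of day 4, and the control count lay between 4 and 6 without any one control array of days 1, 2 or 4.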

How the data were processed

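RNA samples of RAW 264.7 cells were hybridised to 15 Affymetrix arrays, 1 sample on each. The deposited values are intensity values, made by the authors with MAS5 per the submitters' processing notes, each array being scaled to 500 as its 2% trimmed mean. Scaling fixes the total, so differences are relative to the other probe sets. The 66 control probe sets were left out of the tests; of the remaining 12422, 10833 have 1 annotated gene, 396 several and 1193 none, and only the first kind is named.

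A mean for each of 9 groups was fitted to log2(signal + 32) with limma 3.58.1 in R 4.3.3 (eBayes with an intensity trend, 6 residual and 5.39 prior degrees of freedom). Groups held by a single array (3 of 9) take their spread from the rest. Tests were two-sided over 7 comparisons, adjusted by the Benjamini-Hochberg method over all probe sets in each, with the threshold at 0.05. Comparisons share arrays. A gene is represented by its brightest probe set on the mean log2 scale, except that all probe sets of the 4 described genes are given.

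The 4 genes and the lists were chosen with earlier results of these data known. Most of the list genes named were among the largest 2 of their list by the 4-day RANKL effect or past the threshold in a comparison. Not all such genes are named, and Ckmt1, Slc6a4, Cmpk1 and Guk1 were named besides. The genes most like each described gene are the 3 with the highest Pearson r. Residual SDs are those of the fit. Promoter windows came from RefSeq (GRCm38.p6), with 3 of 4 genes matched. Alternatives were other pseudocounts, a fit with no intensity trend, quantile normalization, a block for the replicate number, the brighter 50% of probe sets, days 2, 4 and 5 only, and each array left out; the beta-actin ratio as a covariate was added after seeing the data. Replicate numbers showed no pairing over 15 pairs of groups (r = -0.17 to 0.12). The procedure was tested on simulated data.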

Additional observations from a re-analysis of the deposited data

Results flagged for a closer look

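The change of Ckb with culture time differed between the treatments by 1.25 (RANKL minus control, log2(signal + 32)). Every RANKL array of days 4 and 5 lay above every RANKL array of days 1 and 2, and every control array of days 4 and 5 lay below every control array of days 1 and 2. The latter rests on the day 2 control arrays (3424 and 4062): the day 1 control array, at 2255, was within the residual SD of that of day 5, at 2206. This difference was not tested, and Ckb was chosen on contrasts of the same arrays. The share of all probe sets with such a separation was not counted, so nothing is read from it.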

How the results depend on the processing

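The sign of the 4-day RANKL difference held in all alternatives for Slc6a8 (95625_at, 24 alternatives), Ckb (23), Ak1 (22) and Chchd10 (23). It held in 13 of 22 for the dim Slc6a8 probe set. Several alternatives leave the difference unchanged by design: no intensity trend, the upper 50% of probe sets, and leaving out either control array of day 3. Leaving out either day 1 array gives the same value as days 2, 4 and 5 alone. The genes were also chosen on their RANKL effects, so nothing about robustness is read from these counts. With a pseudocount of 1 the values were 1.61 for Slc6a8 (95625_at), 1.77 for Ak1 and 0.041 for 97748_at, and with 100 they were 0.88 for Slc6a8 and 0.76 for Ak1. Over days 2, 4 and 5 alone Ak1 gave 1.58, Chchd10 2.22 and 97748_at 0.15. The mean of the Slc6a8 probe sets gave 0.62. With the replicate number as a block, 97748_at was at 0.0036, with its sign turned, the other 4 probe sets kept theirs and no list count moved by over 1.5 times; the labels do not say that a number marks a shared culture. For the list genes, the upper 50% of probe sets gave 2 past the threshold over the 4 days and 1 at day 5, and no intensity trend gave 0 at day 2. The beta-actin ratio as a covariate, added after seeing the data, gave 0 at day 2, 6 with culture time in RANKL cells and 2 in control cells. Leaving out 1 array gave 0.86 to 1.58 for Ak1 and 1.04 to 2.22 for Chchd10, the lowest without the control array of day 5 and the highest without either day 1 array, and -0.14 to 0.15 for 97748_at. It gave list counts of 0 to 4 over the 4 days (4 without either day 1 array), 0 to 3 at day 2, 0 to 2 at day 5 (2 without the first RANKL array of day 5), 6 to 14 with culture time in RANKL cells and 4 to 11 in control cells. The causes were not tested. Groups of 1 or 2 arrays limit the precision, and 97748_at and Ak1 in control cells lie at the dim end of the scale.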
